A study of Mus musculus with 12 samples.

Results

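Enteroendocrine cells are the hormone-secreting cells of the gut epithelium, and 10 of their genes were examined among the 47632 genes of each deposited table. They were chosen by name: the peptide hormone genes Sct, Pyy, Gcg, Insl5, Cck and Sst, the serotonin enzyme gene Tph1, the secretory granule genes Chga and Chgb, and the transcription factor gene Neurod1. All 10 had 1 row in each table. Epithelial cells were released with EDTA from the colon of C57/BL6 mice. The Tfeb ΔIEC mice were homozygous for the floxed allele of Tfeb and carried Cre recombinase under the villin promoter, which acts throughout the intestinal epithelium, so deletion was not directed at enteroendocrine cells. Their Tfeb flox/flox controls carried the same floxed alleles, and littermates were used for the DSS experiments. Day 0 cells were taken before dextran sulfate sodium (DSS, a chemical that injures the colonic epithelium) was given, Day 4 cells during DSS in the drinking water, and Day 11 cells after the mice had been returned to plain water. The labels give 2.5% DSS, and the study's methods give a slightly lower concentration. Each of the 6 groups held 2 animals, of 10 and 12 weeks of age on Day 0, 12 weeks on Day 4 and 10 weeks on Day 11.

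The deposited value is 1 FPKM (fragments per kilobase of transcript, scaled to sequencing depth) per gene, genotype and day, combined from both animals by the authors. No spread between animals can be computed and no test was made. A gene is called lower or higher below where (FPKM + 1) differed at least 4-fold between genotypes, provided that one genotype or the other reached 1 FPKM. Log2 fold changes are log2 of (ΔIEC FPKM + 1) over (flox/flox FPKM + 1). In these bulk samples, fewer cells of a type and less RNA per cell cannot be told apart.

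Each enteroendocrine cell makes a particular set of hormones, stores them in dense granules with granins such as chromogranin A, and releases them from its base when receptors on its surface meet nutrients or bacterial products. L cells, which are frequent in the colon, make peptide YY (Pyy) and the proglucagon products glucagon-like peptides 1 and 2 (Gcg), and in the distal colon also insulin-like peptide 5 (Insl5). Enterochromaffin cells make serotonin, D cells make somatostatin (Sst), and secretin (Sct) and cholecystokinin (Cck) are best known from the small intestine. The basic helix-loop-helix factors Neurog3 and Neurod1 act in turn as these cells form.

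The promoters of Sct and Pyy, whose values differed most between genotypes on Days 4 and 11, are shown beside those of Gcg, an L-cell hormone that did not share this difference, and Cck, the only one of the 10 genes with a CACGTG hexamer in this window. Each line is the 250 bases upstream of an annotated start from RefSeq (GRCm38.p6), 5′ to 3′ on the gene's strand. Capitals mark CANNTG, the E-box that Neurod1-type factors bind. CACGTG, one form of it, is the core of the element that TFEB and its relatives bind. Both hexamers are their own reverse complement, so 1 search covers both strands.
Sct, chr7:141279134-141279383, minus strand: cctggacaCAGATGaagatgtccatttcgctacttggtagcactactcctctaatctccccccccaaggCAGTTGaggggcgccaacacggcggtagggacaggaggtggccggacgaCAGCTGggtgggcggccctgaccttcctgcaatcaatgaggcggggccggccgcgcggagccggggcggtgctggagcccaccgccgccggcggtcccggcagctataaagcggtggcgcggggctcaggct
Pyy, chr11:102107833-102108082, minus strand: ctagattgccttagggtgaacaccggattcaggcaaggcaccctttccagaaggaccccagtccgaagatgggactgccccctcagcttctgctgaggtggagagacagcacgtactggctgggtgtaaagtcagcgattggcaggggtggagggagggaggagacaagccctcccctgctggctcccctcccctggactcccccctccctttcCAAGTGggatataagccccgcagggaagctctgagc
Gcg, chr2:62483654-62483903, minus strand: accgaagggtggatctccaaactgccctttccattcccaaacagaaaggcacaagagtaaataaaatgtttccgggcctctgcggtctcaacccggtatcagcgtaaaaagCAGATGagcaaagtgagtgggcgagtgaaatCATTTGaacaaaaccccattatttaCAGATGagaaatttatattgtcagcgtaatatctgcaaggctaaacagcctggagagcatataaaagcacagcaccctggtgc
Cck, chr9:121495695-121495944, minus strand: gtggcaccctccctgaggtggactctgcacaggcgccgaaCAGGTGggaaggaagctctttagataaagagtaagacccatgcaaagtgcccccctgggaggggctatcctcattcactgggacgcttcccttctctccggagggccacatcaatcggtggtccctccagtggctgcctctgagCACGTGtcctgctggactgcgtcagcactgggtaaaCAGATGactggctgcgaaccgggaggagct
The Sct window held 3 E-boxes, which began 242, 181 and 132 bases upstream of the start. The Pyy window shown held 1, beginning 36 bases upstream, and 92 bases upstream of the other annotated Pyy start. In the Gcg window there were 3, beginning 139, 108 and 83 bases upstream. The CACGTG of Cck began 66 bases upstream of its start. The 10 genes had 13 annotated windows, of which 11 held a CANNTG, as did 66.2% of all 32851 RefSeq windows of the same length. CACGTG stood in the window of 1 of the 10 genes and in 6.02% of all windows. A match describes these letters and is not a bound site.

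Before the levels are compared, 3 features of the tables bear on them. The Day 4 and Day 11 tables shared many values: of the genes above 0 on both days, 14.3% in flox/flox and 10.2% in ΔIEC had exactly the same FPKM on both. Among the enteroendocrine genes, Insl5 was identical between these days in flox/flox (2.06 FPKM), as were Cck (0.779 FPKM) and Neurod1 (0.136 FPKM) in ΔIEC. The labels give separate animals for Day 11, but whether its values rest on libraries of their own could not be told from the tables. They are therefore given as labelled and not counted as a repeat of Day 4. Further, the lowest values of genes with 1 annotated transcript lay at a common step, taken here as the FPKM that about 1 fragment is worth at a given transcript length. Near the length of Pyy (551 nt), this step was 1.54 FPKM in Day 4 flox/flox and 0.964 FPKM in Day 4 ΔIEC. Dividing by it gives the approximate fragments behind each value, and the 95% exact intervals printed below rest on those estimates and cover counting error only, not variation between animals or copies made by PCR. In addition, the FPKM values of Day 4 summed to 1464720 in flox/flox and to 820344 in ΔIEC, whereas on Day 0 the sums were 975316 and 973878. Dividing each genotype by its sum shifted the median log2 fold change of all genes up by 0.70 on Day 4. The targeted gene Tfeb was at 0.901, 1.08 and 1.18 FPKM in flox/flox on Days 0, 4 and 11, at 0.185 FPKM in Day 0 ΔIEC, and listed at 0 in ΔIEC on the later days.

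Secretin (Sct, chr7:141278330-141279133, minus strand) had the highest FPKM of the hormone genes in every flox/flox group. It stood at 109 FPKM in flox/flox and 14.5 FPKM in ΔIEC on Day 0. On Day 4 the values were 373 and 26.5 FPKM, and on Day 11 they were 414 and 30.7 FPKM. The ΔIEC value was thus the lower one on each day. The flox/flox value was 7.51 times the ΔIEC value on Day 0 (counting interval 3.72 to 17.2, from about 64 and 9 fragments). It was 14.1 times as high on Day 4 (9.11 to 22.8, from about 191 and 23 fragments). The log2 fold changes were -2.83, -3.77 and -3.71 on Days 0, 4 and 11. Minus the median of the 200 genes nearest in transcript length, they were -1.91 on Day 0, inside the 4-fold limit, and -2.19 on Day 4.

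Peptide YY (Pyy, chr11:102106676-102107832, minus strand), an L-cell hormone that slows gut motility, differed little on Day 0 and widely on Days 4 and 11. On Day 0 it measured 20.9 FPKM in flox/flox and 12.9 FPKM in ΔIEC, a ratio of 1.63 whose counting interval of 0.694 to 4.01 includes equality. On Day 4 the values were 209 and 17.8 FPKM, a ratio of 11.7 (7.16 to 20.4, about 136 and 18 fragments). On Day 11 they were 241 and 20.9 FPKM, a ratio of 11.5. The flox/flox value listed for Day 4 was far above that of Day 0, while the ΔIEC values of all 3 days lay between 12.9 and 20.9 FPKM. Whether the days share 1 scale is not known, so levels of different days are set side by side only. Rank within a group does not depend on how the days were scaled, but it would move with a shift of short transcripts as a class. By rank, Pyy exceeded 87.3% of the genes above 0 in Day 0 flox/flox and 95.5% on Day 4, against 83.0% and 86.2% in ΔIEC.

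**Figure D1:**
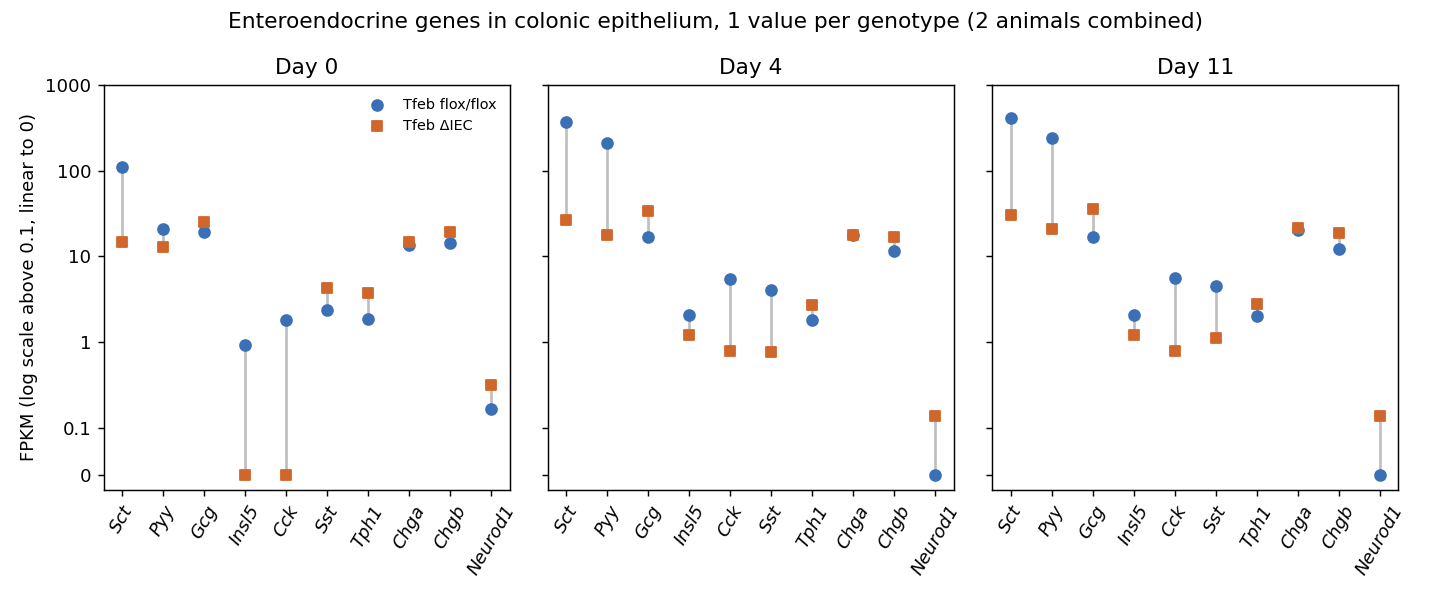
FPKM of the 10 enteroendocrine genes (logarithmic above 0.1, linear down to 0) in Tfeb flox/flox (circles) and Tfeb ΔIEC (squares) on each day, 1 combined value of 2 animals per symbol. Sct and Pyy stand far apart on Day 4 (373 against 26.5 and 209 against 17.8 FPKM), while Chga values nearly coincide (17.8 and 17.9 FPKM).

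Proglucagon (Gcg, chr2:62474530-62483650, minus strand), which L cells make together with Pyy, went the other way. It measured 19.4 FPKM in flox/flox and 25.4 FPKM in ΔIEC on Day 0, 16.8 and 33.4 FPKM on Day 4, and 17.0 and 35.3 FPKM on Day 11. The ΔIEC value was the higher one on each day. Its ratio to flox/flox was 1.31 on Day 0 (counting interval 0.843 to 2.05), 1.99 on Day 4 (1.29 to 3.16, from about 89 and 28 fragments) and 2.08 on Day 11, below the 4-fold limit. On the log2 scale these differences were 0.37, 0.95 and 1.02.

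Gcg and Pyy can also be compared within a group, where no scaling between tables or genotypes enters. Transcript length still enters, since Pyy has 551 nt and Gcg 1088 nt. A shift with length would stay in their ratio and in the shares below, and its part was not tested. In flox/flox, Pyy per Gcg was 1.08 (Day 0), 12.4 (Day 4) and 14.2 (Day 11). In ΔIEC the same ratio was 0.507, 0.533 and 0.591. The ratio in ΔIEC thus stayed below 1 in all 3 tables. Of the summed FPKM of the 6 peptide hormone genes, Gcg made up 12.5% in Day 0 flox/flox and 2.76% in Day 4 flox/flox, against 44.5% and 41.6% in ΔIEC. Sct took 70.6% and 61.0% in flox/flox and 25.5% and 32.9% in ΔIEC. For Pyy the shares were 13.6% and 34.3% in flox/flox and 22.5% and 22.2% in ΔIEC. Weighting FPKM by transcript length changed the Gcg share of flox/flox to 23.0% on Day 0 and 5.53% on Day 4, and the Sct share of ΔIEC to 16.3% and 21.8%. The unweighted sum was 154 FPKM in Day 0 flox/flox and 57.0 FPKM in Day 0 ΔIEC, and 610.4 and 80.5 FPKM on Day 4.

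**Figure D2:**
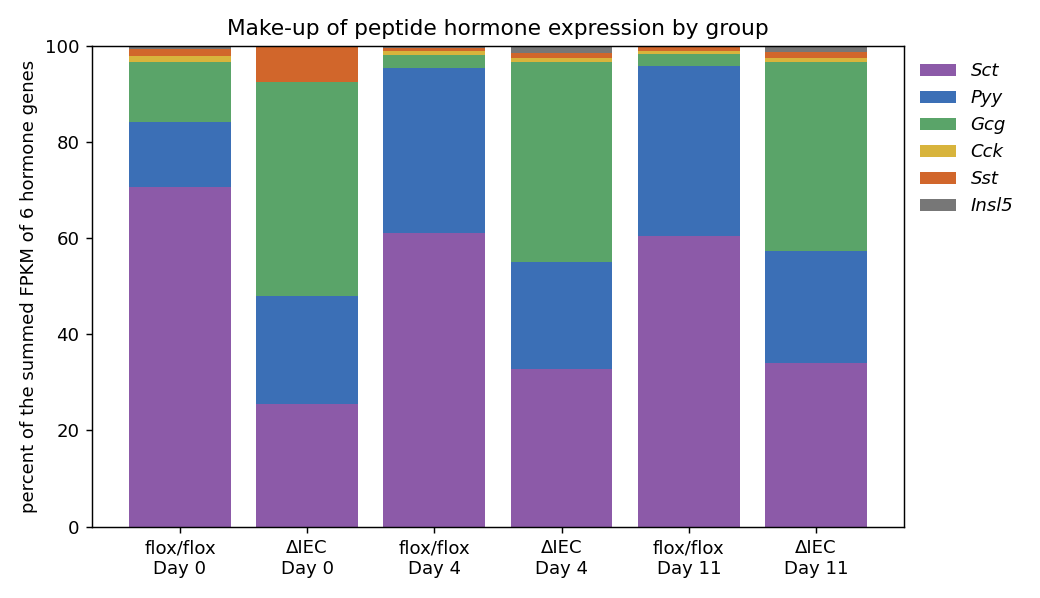
Share of each hormone gene (percent of the summed FPKM of 6 peptide hormone genes) in each group, 1 combined value of 2 animals per bar. Sct is the largest segment in the flox/flox bars (60.6% to 70.6%) and Gcg in the ΔIEC bars (39.3% to 44.5%).

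The other 3 peptide hormone genes were scarce, and their values rest on few fragments. Cholecystokinin (Cck, chr9:121489824-121495694, minus strand), which drives gall bladder contraction and satiety, was at 1.81 FPKM in Day 0 flox/flox and listed at 0 in ΔIEC. On Day 4 it was at 5.37 and 0.779 FPKM, about 6 fragments against 1, so that the counting interval of the ΔIEC to flox/flox ratio of 0.145 ran from 0.0032 to 1.20. On Day 11 it was at 5.59 and 0.779 FPKM. Somatostatin (Sst, chr16:23889573-23890958, minus strand), the inhibitory hormone of D cells, was at 2.36 FPKM in flox/flox and 4.29 FPKM in ΔIEC on Day 0. Its order was inverted on Day 4, at 4.08 and 0.769 FPKM, and on Day 11, at 4.52 and 1.11 FPKM. With about 4 fragments against 1 on Day 4, the ratio of 0.188 had a counting interval of 0.0038 to 1.90. Insl5 (chr4:103017872-103026842, minus strand) was at 0.923 FPKM in Day 0 flox/flox and listed at 0 in ΔIEC, so it did not pass the filter on that day. On Day 4 it was at 2.06 and 1.20 FPKM, about 1 fragment in each genotype. No difference of Cck, Sst or Insl5 was detectable at this depth. A value of 0 at this depth need not mean absence. Abundant genes were listed at 0 as well: 28 genes with at least 100 FPKM in Day 4 flox/flox were at 0 in ΔIEC, and 8 the other way round. The reason for those values was not tested.

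Tph1 (chr7:46644641-46672537, minus strand), the rate-limiting enzyme of serotonin synthesis in enterochromaffin cells, was somewhat higher in ΔIEC in each table. It measured 1.84 and 3.70 FPKM on Day 0, 1.83 and 2.72 FPKM on Day 4, and 1.99 and 2.74 FPKM on Day 11, flox/flox first. With about 5 and 14 fragments on Day 4, the ratio of 1.49 had a counting interval of 0.506 to 5.27. Counts of called genes in this and the further lists are to be read against all genes past the filter, of which 3.35% were lower and 2.09% higher on Day 0, 10.3% and 7.36% on Day 4, and 10.2% and 7.46% on Day 11. All list counts come from FPKM not divided by the sums, also where a share after division stands beside them. Of 7 other genes of serotonin synthesis, transport and breakdown, 4 passed the filter on each day. The highest of them was Maoa, a monoamine oxidase also present in absorptive cells, at 100.5 and 139 FPKM on Day 0 and at 18.2 and 168 FPKM on Day 4. Maoa was the only one of the 4 past the 4-fold limit on Day 4, with a log2 difference of 3.13, against 7.36% of all genes higher (14.5% after division by the FPKM sums). Ddc, the decarboxylase of the second step, stood at 8.66 and 13.7 FPKM on Day 0, and its log2 difference was -0.03 on Day 4. Gch1, which supplies the cofactor of Tph1, was at 3.25 and 0.667 FPKM on Day 4, and Maob was listed at 0 in flox/flox and at 1.58 FPKM in ΔIEC.

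The granin genes, which mark enteroendocrine cells of most kinds, did not follow Sct and Pyy. Chromogranin A (Chga, chr12:102554969-102565028, plus strand) measured 13.5 FPKM in flox/flox and 14.6 FPKM in ΔIEC on Day 0, 17.8 and 17.9 FPKM on Day 4, and 20.5 and 21.2 FPKM on Day 11. The values of each day nearly coincided. The Day 4 ratio of ΔIEC to flox/flox had a counting interval of 0.717 to 1.44 from about 101 and 53 fragments. Chromogranin B (Chgb, chr2:132781278-132795079, plus strand) measured 14.5 and 19.4 FPKM on Day 0, 11.6 and 17.0 FPKM on Day 4, and 12.1 and 18.9 FPKM on Day 11. The ΔIEC value was higher each time, by a ratio of 1.47 on Day 4 (1.06 to 2.06, about 128 and 53 fragments). Set against Chga of the same group, Sct stood at 8.05 in Day 0 flox/flox and 0.992 in ΔIEC, and at 21.0 and 1.47 on Day 4. Pyy per Chga was 1.55 and 0.879 on Day 0, and 11.8 and 0.993 on Day 4. A shift with transcript length would stay in these ratios too, since Chga (1883 nt) is longer than Sct (507 nt) and Pyy (551 nt).

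Directions near 0 depended on the scaling. Division of each genotype by its FPKM sum gave a log2 difference of 0.81 for Chga on Day 4, and centring on the median of all genes gave -0.04. Division by the sums also moved the Day 4 log2 difference of Sct from -3.77 to -2.95, of Pyy from -3.48 to -2.67, of Gcg from 0.95 to 1.75 and of Chgb from 0.52 to 1.30. Sct and Pyy remained past the 4-fold limit on Days 4 and 11 under both scalings.

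Of 19 other granule and secretory pathway genes, 5 passed the filter on Day 0 and 4 on Day 4, and 3 were listed at 0 in all 6 groups. Pam, the enzyme that amidates peptides such as Pyy and secretin, had the highest FPKM of any group in this list. It was at 4.21 FPKM in flox/flox and 4.54 FPKM in ΔIEC on Day 0, 10.1 and 3.07 FPKM on Day 4, and 14.2 and 3.01 FPKM on Day 11. Rab3a, a GTPase of vesicle docking, was at 3.88 and 1.98 FPKM on Day 4. Resp18 was the single gene of the list past the limit on Day 0, at 4.98 FPKM in ΔIEC and listed at 0 in flox/flox, and on Day 4 it was at 1.38 FPKM and 0. Ptprn2, a granule membrane protein, was at 1.24 and 2.66 FPKM on Day 0.

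**Figure D3:**
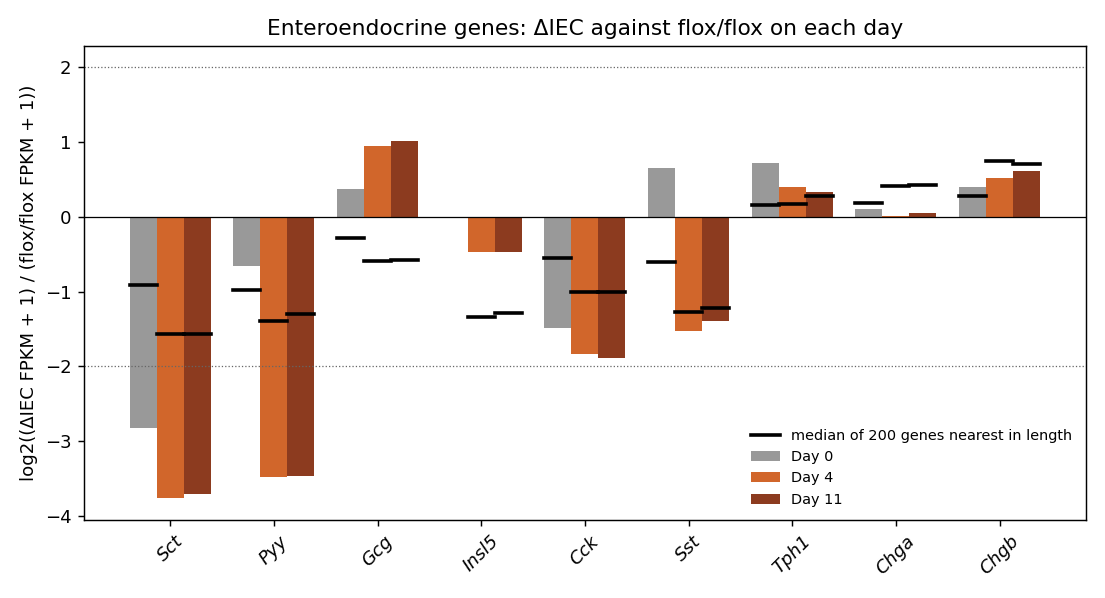
Log2 fold change of (FPKM + 1), ΔIEC over flox/flox, for the enteroendocrine genes past the filter on Day 0 (grey), Day 4 (orange) and Day 11 (brown), with dotted lines at 4-fold and black ticks at the median of the 200 genes nearest in transcript length. Sct on all days and Pyy on Days 4 and 11 pass the lower line, Sct on Day 0 by less than 4-fold below its neighbours' median (-0.92), and Gcg lies above 0 where its length neighbours lie below.

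Neurod1 (chr2:79452521-79456751, minus strand) stayed under the filter in every group. It was at 0.164 and 0.313 FPKM on Day 0, about 1 and 2 fragments, and was listed at 0 in flox/flox and at 0.136 FPKM in ΔIEC on Day 4. Its row in the tables shares a locus with Itga4, Cerkl and other overlapping genes. Among 16 other transcription factor genes of this lineage or of secretory fate, 5 passed the filter on Day 0 and 3 on Day 4. None of these differed 4-fold, a count that says little for so few genes at background shares of 3.35% lower and 2.09% higher on Day 0, and 10.3% and 7.36% on Day 4. Hes1, the Notch target that restrains secretory fate, was the highest on Day 4, at 6.94 FPKM in flox/flox and 1.99 FPKM in ΔIEC. Foxa2 followed at 2.33 and 1.53 FPKM. Pax4, which like Neurog3 was picked out after its values were seen, was at 1.29 FPKM in Day 4 flox/flox and listed at 0 in ΔIEC, and on Day 0 St18 was at 1.98 FPKM in flox/flox and listed at 0 in ΔIEC. Mlxipl was at 1.77 and 2.00 FPKM on Day 0. Neurog3, the factor that commits cells to the lineage, was at 0.305 and 0.905 FPKM on Day 0 and listed at 0 on the later days.

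Further hormone genes were sparse too, with 8 of 12 listed at 0 in all groups. Iapp was the only one past the 4-fold limit, at 4.04 FPKM in Day 4 flox/flox and 5.78 FPKM in Day 11 flox/flox, and listed at 0 elsewhere. Tac1, the tachykinin gene of enterochromaffin cells, was at 1.08 and 0.499 FPKM on Day 0 and at 5.11 and 3.84 FPKM on Day 4. Nts (neurotensin) was at 0.441 and 2.02 FPKM on Day 0 and 0.593 and 1.29 FPKM on Day 4. Adm was under 1 FPKM throughout. Of 12 nutrient and stimulus receptors, 8 were listed at 0 in all groups, and the fatty acid receptor genes Ffar4 (9.78 and 7.82 FPKM on Day 4) and Ffar2 (1.05 and 0.877 FPKM) were the only ones past the filter. Among 16 genes for hormone receptors and the peptidase that degrades them, 11 were listed at 0. Dpp4, the peptidase that cleaves GLP-1 and peptide YY, was at 2.79 and 7.92 FPKM on Day 0 and at 1.25 and 4.91 FPKM on Day 4, and Sstr2 was at 1.35 and 1.18 FPKM on Day 4. On each day 2 sensing and 2 receptor genes passed the filter, and none of these differed 4-fold, which with so few genes says little against a Day 4 background of 10.3% lower and 7.36% higher.

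Counted together, 8 of the 10 genes passed the filter on Day 0, and 1 of them, Sct, was lower in ΔIEC, where 3.35% of the 9993 genes past the filter were. None was higher, against 2.09% of all genes. On Day 4, 9 passed and 2 were lower, Sct and Pyy, against 10.3% of 9371 genes, and none was higher, against 7.36%. On Day 11 the same 2 were lower, against 10.2% of 9365 genes, with none higher, against 7.46%. Division by the FPKM sums changed the Day 4 background to 5% lower and 14.5% higher. The median log2 fold change of the genes past the filter was 0.24 on Day 0 and -0.48 on Days 4 and 11, and that of all genes was 0.06, 0.06 and 0.08. Division by the FPKM sums turned the enteroendocrine median to 0.03 on Days 4 and 11, and a filter at 5 FPKM gave -0.91 and -0.92.

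Transcript length moved with the difference between genotypes across the whole tables, and the hormone genes are short. The length was 507 nt for Sct, 551 nt for Pyy, 566.5 nt for Insl5, 721 nt for Sst, 783 nt for Cck and 1088 nt for Gcg, and between 1762 and 2740 nt for Tph1, Chga, Neurod1 and Chgb. Over the 9 genes past the filter on Day 4, Spearman's rho of length with the log2 fold change was 0.82, and over all 9353 genes with a length it was 0.38. These points come from the same combined libraries. Among the 519 genes under 900 nt with a mean of at least 50 FPKM on Day 4, a class that holds Sct and Pyy, 58.2% were lower, with a median of -2.21. By the same limits, 7.8% of 436 genes were lower on Day 0, when Pyy was too low to be among them, and 55.9% of 526 genes on Day 11. The 200 genes nearest to Sct in length had a median of -1.57 on Day 4, and 1.5% of them lay below Sct. For Pyy the neighbours' median was -1.39, and 4% lay below it. On Day 0 the corresponding values were -0.92 and 2% for Sct, and -0.98 and 59.5% for Pyy. Gcg lay above its neighbours, whose Day 4 median was -0.59, with 85.5% of them below it. The neighbours were matched on length and not on level, and the short and abundant class above had a lower median (-2.21) than those of Sct and Pyy. After subtraction of the neighbours' median, Day 4 differences of -2.19 for Sct, -2.09 for Pyy and 1.54 for Gcg were left. On Day 0 the remainder was -1.91 for Sct, inside the 4-fold limit, so that its Day 0 call was lost. It was 0.32 for Pyy and 0.66 for Gcg, and both lay above their neighbours. For Sst the Day 4 remainder was -0.25, for Chga -0.40 and for Chgb -0.23. What length contributes to these differences was not tested.

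**Figure D4:**
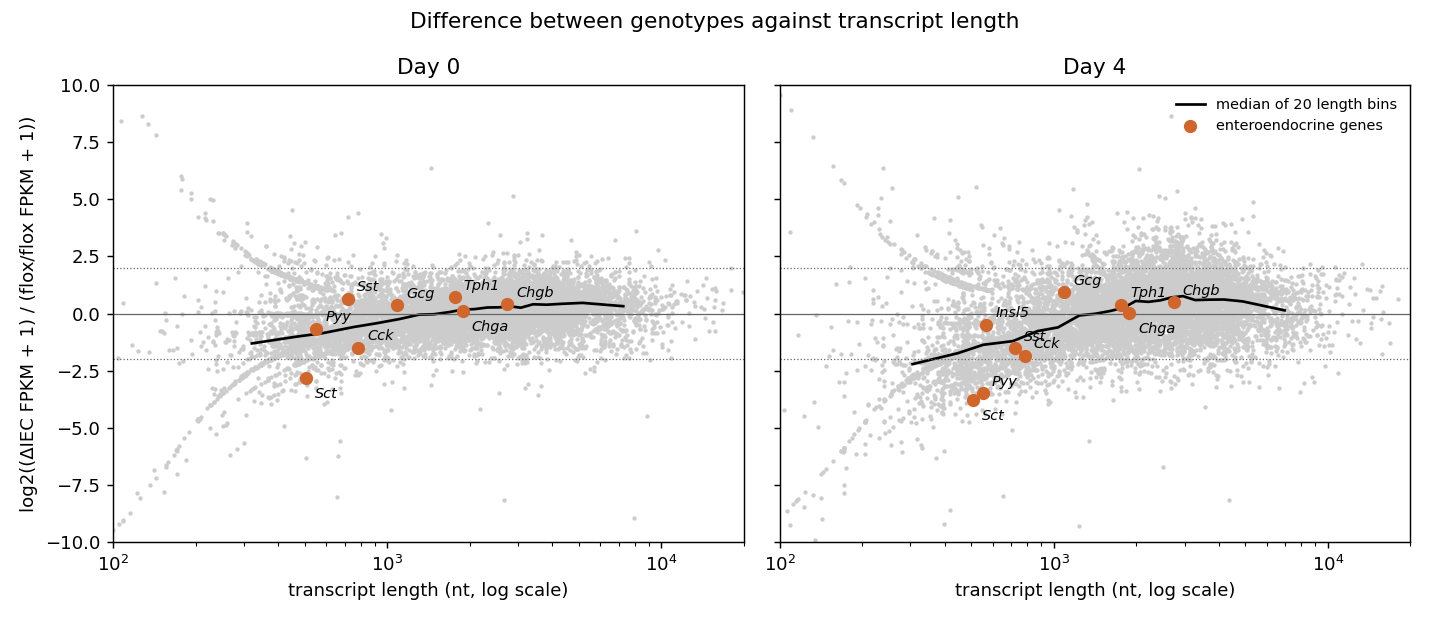
Log2 fold change of (FPKM + 1), ΔIEC over flox/flox, against transcript length (log scale) for all genes past the filter on Days 0 and 4 (grey, points beyond the axes not drawn), the median of 20 length bins (line) and the enteroendocrine genes (orange). The line runs below 0 for short transcripts on both days, with Sct (-3.77) and Pyy (-3.48) below it on Day 4 and Gcg (0.95) above it.

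The root mean square difference of centred log2(FPKM + 1) was computed among 3713 genes with at least 10 FPKM in some group. By it, the genes with the nearest profiles over the 6 groups were found for Sct, Pyy, Gcg, Chga and Chgb. For Sct these were Ndufb4 (0.14), Dpm3 (0.17) and Gm10177 (0.20). Dpm3 measured 44.8 and 7.38 FPKM on Day 0 and 158 and 10.2 FPKM on Day 4, and it is a subunit of a sugar transferase of the endoplasmic reticulum. For Pyy they were Lsm4, an RNA-binding protein gene, with a difference of 0.22, and Gm4525 and Rpl36-ps2 (both 0.23). Lsm4 measured 16.6 and 10.9 FPKM on Day 0 and 121 and 11.9 FPKM on Day 4. None of these is an enteroendocrine marker, and their transcripts are between 254 and 971 nt long. Gcg was nearest to Prkab1, Akr1b8 and Cyp2d26 (0.06 to 0.07), Chga to Acadvl, Wasf2 and Fkbp8 (0.08 to 0.09), and Chgb to Pccb and Nrd1 (0.05 and 0.07). Genes near the profiles of Gcg, Chga and Chgb were common. A difference under 0.5 was found for 852 genes with Gcg, 843 with Chga and 1016 with Chgb, but for 46 with Sct and 49 with Pyy.

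Marker genes place these values in the tissue. Epithelial markers were abundant in every group, Krt19 between 3018 and 5590.5 FPKM and Epcam between 1109 and 2018 FPKM. Of 9 enteric neuron and glia markers, which could also bring Tac1 or granins, 7 were listed at 0 in all groups and the list summed to at most 0.483 FPKM in any group. The 8 stromal markers summed to between 0.598 and 2.93 FPKM, and the 9 immune markers to between 1.04 and 7.72 FPKM. Markers of other secretory cells were among the genes lower beside Sct and Pyy. On Day 4, where 10.3% of all genes past the filter were lower and 7.36% higher, 3 of 8 goblet markers were lower and none higher, with a summed level of 78512 FPKM in flox/flox and 16357 FPKM in ΔIEC. The lower ones were Tff3 (28759 and 2166 FPKM), Zg16 (34794 and 7393 FPKM) and Fcgbp (1579 and 145 FPKM), while Muc2 (645 and 1894 FPKM), Clca1 (432 and 1298 FPKM), Atoh1 (6.26 and 12.7 FPKM) and Spdef (10.3 and 12.4 FPKM) had the larger value in ΔIEC. These counts depend on the scaling, since division by the FPKM sums shifted the median of all genes up by 0.70 on Day 4. On the log2 scale Zg16 lay at -2.23 and Ang4, listed below, at -2.44, with Muc2 at 1.55 and Clca1 at 1.59. On Day 11, 3 goblet markers were lower and 2, Muc2 and Clca1, were higher, against 10.2% and 7.46% of all genes (4.94% and 14.5% after division by the FPKM sums). The goblet counts are from undivided FPKM, where Zg16 lay close to the limit at -2.24. On Day 0 the goblet list summed to 22852 and 15072 FPKM, with 1 gene lower, against 3.35% of all genes. The study places Paneth cells in the small intestine, and the cells here came from the colon. Genes listed as Paneth markers are therefore not read as Paneth cells. Of 5 such genes, 2 were lower on Day 4, Ang4 (3526 and 649 FPKM) and Pla2g2a (116 and 10.2 FPKM), and Lyz1 was at 3.07 and 2.39 FPKM. On Day 0 none of them was lower and Pla2g2a was higher in ΔIEC, at 4.27 and 111 FPKM, against 2.09% of all genes higher. On Day 0, when Sct was the only enteroendocrine gene called, all 3 small-intestinal enterocyte markers past the filter had the lower value in ΔIEC. These were Fabp6 (18.8 and 1.74 FPKM, past the limit), Rbp2 (12.6 and 9.36 FPKM) and Alpi (2.90 and 1.43 FPKM), and their median on the log2 scale was -0.68, with list sums of 34.3 and 13.5 FPKM. Fabp6 was at 24.0 and 2.65 FPKM on Day 4, but the other 2 genes of that list past the filter had the larger value in ΔIEC, Rbp2 at 1.24 and 7.56 FPKM and Alpi listed at 0 and at 1.66 FPKM. The list's median log2 fold change was 1.41 on Day 4, Rbp2 was higher on Day 11, 3 of its 8 genes were listed at 0 in all groups, and it summed to between 12.5 and 34.3 FPKM. In the absorptive colonocyte list 3 of 7 genes were higher in Day 4 ΔIEC, as were 3 of 8 epithelial markers, Krt20, Cdh1 and Vil1, against 7.36% of all genes, or 14.5% after division by the FPKM sums. Both list counts are from undivided FPKM and are not given after that division, which would raise them or leave them as they are. On Day 0, 1 colonocyte gene, Aqp8 (198 and 30.1 FPKM), was lower, against 3.35% of all genes, and none was higher, and no epithelial marker passed the limit. Tuft cell markers summed to between 1.55 and 8.67 FPKM, and on Day 0, 3 of 8 passed the filter with a median log2 fold change of -1.67. Avil (3.58 FPKM in flox/flox and listed at 0 in ΔIEC) was past the limit, against 3.35% of all genes lower, and Dclk1 was at 2.75 and 0.180 FPKM. Most of the lower markers have short transcripts (Tff3 493 nt, Zg16 659 nt, Ang4 709 nt, Pla2g2a 786 nt, Fabp6 479 nt), a class in which 58.2% of the abundant genes were lower on Day 4, while Fcgbp has 7927 nt. Of those with the larger value in ΔIEC, Clca1 has 3655 nt, Atoh1 2121 nt and Spdef 1708 nt, but Muc2 (711 nt, the median of its annotated transcripts) and Rbp2 (672 nt) are short. The part of these differences in the values of Sct and Pyy was not tested.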

How the data were processed

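RNA-seq of colonic epithelial cells was used for 6 groups of 2 animals, grouped by the genotype and day of the labels. Full-length cDNA was made by the authors with a variation of SmartSeq2, sequenced on a MiSeq, mapped to mm10 with TopHat2 2.0.14 and Bowtie, and compared between genotypes within each day with Cuffdiff 2.1.1. The deposited tables hold 1 FPKM value per gene and genotype, estimated by the authors over both animals, and whether the days share a scale is not stated. Their columns of log2 fold change, test statistic, p-value and q-value hold the authors' own comparison and were not used. The annotation is not given in the sources used here. Total fragments per sample are unknown.

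From these values log2 fold changes with a pseudocount of 1 FPKM were computed, with a filter (1 FPKM or more in one of the genotypes) and a 4-fold limit. Transcript length is the median of a gene's basic transcripts in GENCODE (GRCm38, the assembly of mm10), which also gave the coordinates. The value of 1 fragment was taken, per group, from genes with 1 transcript within 10% of a gene's length, as the median of the values between their 5th percentile and 1.5 times that percentile. It mixes 2 animals of unequal depth, so fragment numbers are approximate. Genes named are the 10 enteroendocrine genes, Tfeb, of each list some of the 4 highest and of those past 4-fold, and the 3 nearest profiles. Neurog3, Pax4, Atoh1 and Spdef were added after their values were seen, and 1 gene under this rule is not reported here. The genes and lists were chosen with earlier results of these data known. Alternatives were pseudocounts of 0.1 and 5, no filter or one at 5 FPKM, a 2-fold limit, division by the FPKM sum, centring on the median, subtraction of the median of the 200 genes nearest in length, and hormone shares of FPKM times length. Scripts ran in Python 3.11.15 (scipy 1.17.1, pandas 2.3.3, matplotlib 3.10.9, numpy 2.4.6), and the steps were tested on simulated data.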

Additional observations from a re-analysis of the deposited data

Results flagged for a closer look

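Sst lay on opposite sides of equality on different days, with a log2 fold change of 0.66 on Day 0 (higher in ΔIEC) and -1.52 on Day 4 (lower in ΔIEC). Each is 1 combined value per genotype, from about 3 and 5 fragments on Day 0 and 4 and 1 on Day 4, flox/flox first, and the difference between days was not tested.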

How the results depend on the processing

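No paired analysis was possible because each genotype has 1 combined value per day, and for the same reason no fit that leaves out an animal was run. The number of enteroendocrine genes called lower on Day 0 was 2 with a pseudocount of 0.1 (Cck, listed at 0 in ΔIEC, was added), 2 with a 2-fold limit and 0 after subtraction of the length neighbours' median, where Sct was left at -1.91. On Day 4 it was 4 with a pseudocount of 0.1 and 4 with a 2-fold limit, Cck and Sst joining Sct and Pyy. On Day 11 it was 4 with a 2-fold limit, at which 1 gene, Gcg, was higher. The other alternatives left these counts within 1.5 times, and after subtraction of the length trend Sct and Pyy were still past 4-fold on Days 4 and 11. The neighbours used for that trend were matched on length and not on level. Short and abundant genes, the class of Sct and Pyy, had lower medians, -2.21 on Day 4 and -2.14 on Day 11. Subtraction of those medians was not run. Of 130 values of single genes under alternatives, 4 newly passed the 4-fold limit, 1 no longer did and none that had passed it changed sign. Of values not past the limit, the length subtraction turned Insl5 from -0.48 to 0.86 on Day 4 and to 0.82 on Day 11, Pyy on Day 0 from -0.66 to 0.32, Chga to -0.08, -0.40 and -0.38 on Days 0, 4 and 11, and Chgb to -0.23 and -0.11 on Days 4 and 11. Division by the FPKM sums turned Insl5 to 0.03 on Days 4 and 11, and centring turned Chga to -0.04 and -0.03. As shares of FPKM times length, Sct made up 60.4% in Day 0 flox/flox, and 16.3%, 21.8% and 23.0% in ΔIEC on Days 0, 4 and 11. Gcg then made up 23.0%, 5.53% and 4.99% in flox/flox on Days 0, 4 and 11, and 61.1%, 59.2% and 56.9% in ΔIEC, while Pyy made up 16.0% and 17.0% in ΔIEC on Days 4 and 11. Depth limits Cck, Sst, Insl5, Tph1 and Neurod1 to 14 fragments or fewer in any group.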
